A study of Mus musculus with 2 samples.

Results

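The 10 major plasma apolipoprotein genes were followed in the livers of mice fed a high-fat diet (HFD) that carried either a control virus or a virus encoding the long noncoding RNA *Wee1-AS*. The genes were *Apoa1*, *Apoa2*, *Apoa4*, *Apoa5*, *Apob*, *Apoc1*, *Apoc2*, *Apoc3*, *Apoc4* and *Apoe*. They were found by their gene symbols in the deposited transcript table, and the values of their 25 transcript models were summed per gene. They made up 10 of 45777 genes in the table, and all 10 were among the 15857 genes with 10 or more estimated counts in either library.

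Poly-A RNA of the liver was sequenced in 2 libraries, 1 per group. Both groups were C57BL/6 N mice that were 7 weeks old when the HFD began and that ate it for 18 weeks. At week 13, the control group received AAV-GFP and the other group AAV-*Wee1-AS* through the retro-orbital route, so that the livers were taken 5 weeks after the virus. AAV is an adeno-associated virus used to deliver genes. The vector was of serotype AAV9 with a CMV promoter, which is not restricted to hepatocytes. Nothing in the labels says whether a library held 1 mouse or several, and the submitters mention more livers than the 2 libraries analysed here. *Wee1-AS* itself was not analysed here.

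Apolipoproteins are the proteins that hold lipoprotein particles together and direct their traffic. The liver builds very low-density lipoprotein (VLDL) on a single molecule of apolipoprotein B and sends triglyceride out of the hepatocyte in it, and it supplies apolipoprotein A-I and A-II for high-density lipoprotein (HDL). Smaller exchangeable apolipoproteins move between particles, where they switch lipoprotein lipase on or off or act as ligands for receptors that take up remnants.

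With 1 library per group there was no spread between replicates, and no P value was computed for any gene. A ratio below is the AAV-*Wee1-AS* library over the AAV-GFP library after scaling of the estimated counts by the TMM method. The intervals given are exact (Clopper-Pearson) 95% intervals. They cover counting error only, they compare libraries and not treatments, and they take no account of copies made by PCR. The totals were 55466182 estimated counts in the control and 48079335 with AAV-*Wee1-AS*. In bulk RNA, fewer cells of a type and less RNA per cell cannot be told apart.

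By counts, 9 of the 10 genes were lower in the AAV-*Wee1-AS* library and 1, *Apob*, was higher. *Apoa4* was lowest, at 6.24-fold under the control, followed by *Apoc2* at 2.52-fold under it. *Apob* was 3.53-fold higher. The remaining 7 genes lay between 1.20-fold and 1.63-fold below the control, and 1 of them, *Apoe*, changed direction when its level was read per length of transcript. After removal of the trends that the ratio had with GC content and length of the transcript, 7 of the 10 genes were above 0, their median turned to 0.08, and *Apoa4* was the 1 member still past 2-fold.

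The median log2 ratio of the 10 genes was -0.61, against -0.02 for all 15857 genes and -0.19 for the 5592 genes that reached 1000 counts in either library. Of all genes, 22.2% were more than 2-fold higher and 8.71% more than 2-fold lower, and of the 5592 more abundant genes 17.0% and 4.31% were. Of the 10 apolipoprotein genes, 1 was past 2-fold upward and 2 downward. Of the abundant genes, 58.5% were below 0 on the log2 scale, beside 9 of 10 here.

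Together, the 10 genes held 6.62% of the control library's counts and 4.33% of those of AAV-*Wee1-AS*. In TPM (a level per length of transcript, scaled to the same total in each library), their sum was 98870 in AAV-GFP and 78292 in AAV-*Wee1-AS*, which is 9.89% and 7.83% of the total. *Apoa2* led in the control library and *Apoe* in the AAV-*Wee1-AS* library, while *Apob* was the lowest of the 10 in both. Which of *Apoa2* and *Apoe* led, and the TPM sums, rested on the transcript models to which the counts of *Apoe* were assigned, as described with that gene. Without *Apoe*, the TPM of the other 9 genes summed to 81905 in AAV-GFP and 54203 in AAV-*Wee1-AS*.

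**Figure D1:**
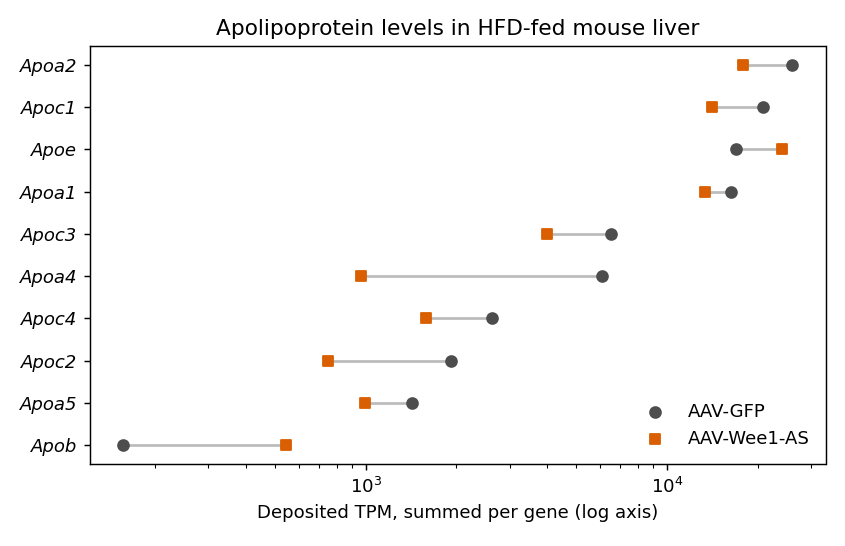
Deposited TPM summed per gene (log axis) for each of the 10 apolipoprotein genes with AAV-GFP (circles) and AAV-Wee1-AS (squares), 1 library each. All but 2 genes sit lower in AAV-Wee1-AS, while Apob goes from 156 to 542 and Apoe from 16966 to 24090.

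The sequences just upstream of 4 genes are shown because these genes mark the span of the ratios: *Apoa4* and *Apoc2* were the furthest below the control, *Apob* was the 1 gene above it by counts, and *Apoa1* was the nearest to it. They come from RefSeq on the build GRCm38.p6 and end at the base before the annotated start of a curated transcript, or, for *Apob*, of the predicted one. *Apoc2* is read on the minus strand, from chr7:19677942-19678083, and was shortened where it runs into *Apoc4*. The others are on the plus strand, at chr9:46240594-46240843 for *Apoa4*, chr9:46228380-46228629 for *Apoa1* and chr12:7977427-7977628 for *Apob*. Capitals mark matches to any of 5 motifs on either strand.
Apoa4: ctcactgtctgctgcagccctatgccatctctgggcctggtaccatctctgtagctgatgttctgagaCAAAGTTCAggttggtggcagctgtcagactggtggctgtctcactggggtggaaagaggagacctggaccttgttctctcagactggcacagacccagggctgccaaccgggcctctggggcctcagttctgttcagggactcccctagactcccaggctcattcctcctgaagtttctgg
Apoc2: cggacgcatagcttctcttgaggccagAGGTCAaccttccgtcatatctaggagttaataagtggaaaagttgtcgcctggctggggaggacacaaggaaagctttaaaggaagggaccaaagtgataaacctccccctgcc
Apob: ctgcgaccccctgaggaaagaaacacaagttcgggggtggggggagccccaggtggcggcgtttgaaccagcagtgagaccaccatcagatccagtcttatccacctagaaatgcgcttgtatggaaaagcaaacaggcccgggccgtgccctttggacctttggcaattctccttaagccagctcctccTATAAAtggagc
Apoa1: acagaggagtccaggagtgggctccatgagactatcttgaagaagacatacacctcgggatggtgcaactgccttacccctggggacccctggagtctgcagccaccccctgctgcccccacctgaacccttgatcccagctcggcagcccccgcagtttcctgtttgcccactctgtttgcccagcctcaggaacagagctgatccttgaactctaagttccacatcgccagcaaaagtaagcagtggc

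The letters searched for were CAAAGTNCA (an element bound by HNF4, the hepatocyte nuclear factor), AGGTCA (the half-site of many nuclear receptors), TATAAA (the TATA box), GGGCGG (the GC box) and CCAAT (the CCAAT box). In the 250 bases upstream of 32851 annotated mouse starts, they were found in 1.19%, 14.02%, 12.4%, 32.7% and 33.8% of windows. Windows were available for 8 of the 10 genes. *Apoa4* was the 1 gene of these with the HNF4 element, which begins 182 bases upstream of its start. AGGTCA was found in 3 of the 8 genes: *Apoc2*, at 115 bases upstream, *Apoa2* and *Apoc4*. TATAAA was found in 4 of the 8: *Apob*, at 60 bases upstream of its curated start, *Apoa2*, *Apoa5* and *Apoe*. Neither was thus particular to the genes at the ends of the span. The *Apoa1* window held none of these letters. A match is a string of letters and was not tested as a binding site, and the HNF4 element was added to the search after the windows had been seen.

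The HDL apolipoproteins were compared first. *Apoa1* encodes apolipoprotein A-I, the main structural protein of HDL and the activator of lecithin-cholesterol acyltransferase. It had 531391 counts in AAV-GFP and 369628 in AAV-*Wee1-AS*, a log2 ratio of -0.26 (interval -0.27 to -0.25), with 16330 and 13403 TPM. *Apoa2* encodes apolipoprotein A-II, the other main HDL protein, and had 444618 and 258666 counts, a log2 ratio of -0.52 (-0.52 to -0.51), with 26005 and 17856 TPM. Both were lower in the AAV-*Wee1-AS* library by less than 2-fold, and *Apoa2* stayed above *Apoa1* per length, at 1.59 times its TPM in AAV-GFP and 1.33 times in AAV-*Wee1-AS*. With the GC and length trends removed, *Apoa1* turned to 0.49 and *Apoa2* was at -0.02.

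*Apoa4* encodes apolipoprotein A-IV, a protein of chylomicrons and HDL that is made mainly in the small intestine and, in mice, also in the liver, where fatty liver is known to raise it. It had 335069 counts in AAV-GFP and 44701 in AAV-*Wee1-AS*, a log2 ratio of -2.64 (-2.66 to -2.63). Its level went from 6106 to 961 TPM, and its place among all genes from 21 to 139. In the control library *Apoa4* stood beside *Apoc3* with 0.94 times its TPM, and in the AAV-*Wee1-AS* library it had 0.24 times. Of all 15857 genes, 1.14% had a lower ratio than *Apoa4*, and of the abundant genes 0.18%. With the GC and length trends removed its log2 ratio was -1.92. Among 5 genes of enterocytes, *Alpi*, *Lct* and *Sis* had 0 counts in both libraries, *Vil1* had 3 and 5, and *Fabp2*, a fatty acid binding protein, had 5088 and 4717. The log2 ratio of *Fabp2* was 0.15, and -0.78 with the trends removed. The part of other tissue in the *Apoa4* ratio was not tested.

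*Apob* encodes the scaffold of VLDL and low-density lipoprotein. It had 71263 counts in AAV-GFP and 209460 in AAV-*Wee1-AS*, a log2 ratio of 1.82 (1.81 to 1.83). Its level per length was 156 and 542 TPM, place 840 and place 223 among all genes. In the control library *Apoa1* had 104 times the TPM of *Apob*, and in the AAV-*Wee1-AS* library 24.7 times. *Apob* differs from the other 9 genes in its messenger: at 13909 bases the curated model is by far the longest, and its transcript had a GC content of 43.5%, while the others ranged from 51.9% to 59.5%. With the trends removed, the log2 ratio of *Apob* was 0.02.

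The apolipoproteins that act on lipoprotein lipase, the enzyme that frees fatty acids from circulating triglyceride, were all lower in AAV-*Wee1-AS*, but to unequal degrees. *Apoc2* encodes its required activator and had 46052 counts in AAV-GFP and 15215 in AAV-*Wee1-AS*, a log2 ratio of -1.33 (-1.36 to -1.31), with 1923 and 750 TPM. *Apoc3* encodes an inhibitor of the lipase and of remnant uptake, and had 113977 and 59314 counts, a log2 ratio of -0.68 (-0.69 to -0.66), with 6528 and 4010 TPM. The TPM of *Apoc3* was 3.39 times that of *Apoc2* in the control library and 5.35 times in the AAV-*Wee1-AS* library, so the inhibitor message stood further above the activator message there. *Apoa5* encodes a promoter of the lipase reaction at the vessel wall, and had 115378 and 67878 counts, a log2 ratio of -0.50 (-0.52 to -0.49), with 1425 and 996 TPM. With the trends removed, *Apoc2* was at -0.54, and *Apoc3* and *Apoa5* at 0.08 and 0.07.

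*Apoc1* encodes apolipoprotein C-I, which hinders the uptake of remnants and activates lecithin-cholesterol acyltransferase. It had 300275 counts in AAV-GFP and 172427 in AAV-*Wee1-AS*, a log2 ratio of -0.54 (-0.55 to -0.53), with 20813 and 14105 TPM. *Apoc4*, a less studied liver gene of the same cluster, had 44657 and 22829 counts, a log2 ratio of -0.70 (-0.73 to -0.68), with 2618 and 1579 TPM. Both were lower by less than 2-fold. With the trends removed, they stood slightly above 0, at 0.24 and 0.21.

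**Figure D2:**
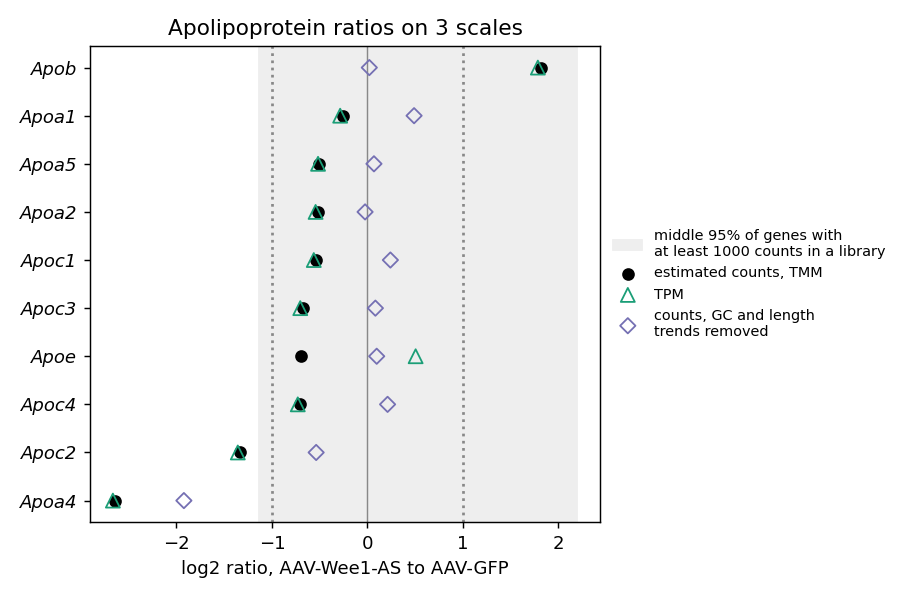
Difference of the libraries on the log2 scale (AAV-Wee1-AS over AAV-GFP) for each apolipoprotein gene from TMM-scaled counts (filled circles), from TPM (triangles) and from counts with GC content and length trends removed (diamonds). The grey band holds the middle 95% of genes reaching 1000 counts (in either library) by their TMM-scaled count ratios (-1.14 to 2.20). It applies to the filled circles only, and dotted lines mark 2-fold. Apoa4 stays past the lower line on all 3 scales, and Apoe lies at -0.69 by counts but at 0.51 by TPM.

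*Apoe* encodes a ligand by which liver receptors take up remnants, and it is made by hepatocytes and by macrophages. Summed over its 5 transcript models, it had the most counts of the 10 genes, with 1669532 in AAV-GFP and 859945 in AAV-*Wee1-AS*, a log2 ratio of -0.69 (-0.70 to -0.69). In TPM it went the other way, from 16966 to 24090, a log2 ratio of 0.51. With the GC and length trends removed from the counts, it was at 0.10. The direction of *Apoe* therefore depended on the unit and on the trends.

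The counts of *Apoe* were assigned to different transcript models in the 2 libraries. The curated model NM_009696, of 1273 bases at chr7:19696244-19699188 on the minus strand, had 1228 counts in AAV-GFP, 0.0736% of the gene, and 845429 in AAV-*Wee1-AS*, 98.3% of it. The predicted model XM_030242015, of 3010 bases at chr7:19696270-19701310, had 1660320 counts in AAV-GFP, 99.4% of the gene, and 6813 in AAV-*Wee1-AS*, 0.79% of it. The predicted model starts 2122 bases further upstream than the curated one and reaches to within 3 bases of the neighbouring gene *Tomm40*. The other 3 models each held under 1% of the counts in both libraries.

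The models differ in length by a factor of 2.36, or 1.24 on the log2 scale, and TPM divides by that length. When all counts of *Apoe* were placed on the length of the curated model, a calculation chosen after the data were seen, its level was 39814 in AAV-GFP and 24198 in AAV-*Wee1-AS*, a log2 ratio of -0.72. On that length *Apoe* would be the most abundant of the 10 genes in both libraries. Whether the RNA molecules or the assignment of reads to models differed was not tested, because no read coverage was analysed here.

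Such a switch was uncommon among genes with 2 or more models. Of 2794 such genes that reached 1000 counts in each library, 14.5% had a different leading model in the 2 libraries, and in 0.143% (4 genes, *Apoe*, *Dock8*, *Hspg2* and *Pbld2*) the leading model differed and held at least 90% of the counts in each. Among the 7 apolipoprotein genes with several models, *Apoe* was the 1 whose leading model differed. The shares of *Apoa5* moved the most of the other 6. Its longer model of 2517 bases went from 71.3% to 63.2% and its shorter one of 2323 bases from 28.7% to 36.8%, and their starts lie 25 bases apart. *Apoa2* was divided between models of 518 and 521 bases, which held 53.6% and 44.3% in AAV-GFP and 53.9% and 43.9% in AAV-*Wee1-AS*. The curated model of *Apob* held 91.8% and 93.1%, and the leading models of *Apoc1*, *Apoc2* and *Apoc3* held over 93% in both libraries. Since these models overlap, their counts are shares set by the authors' software and not reads seen on 1 model alone.

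**Figure D3:**
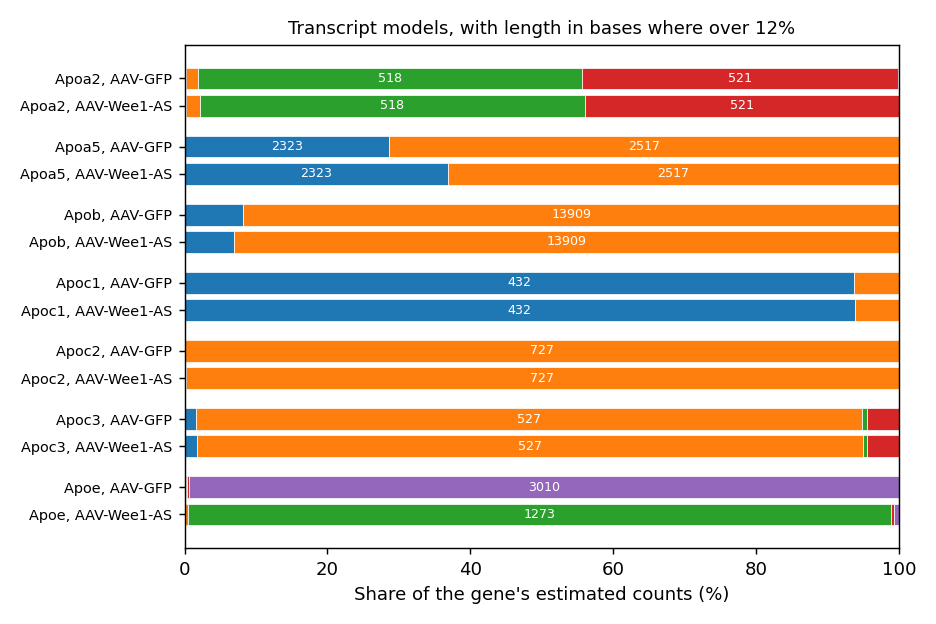
Share of each gene's estimated counts (%) held by each of its transcript models in each library, for the 7 apolipoprotein genes with 2 or more models; colours separate models within a gene, ordered by length. The 3010-base model holds 99.4% of Apoe in AAV-GFP and the 1273-base model 98.3% in AAV-Wee1-AS, while the longer model of Apoa5 goes from 71.3% to 63.2%.

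The genes lie in 2 clusters and at 2 single positions. On chromosome 9, *Apoa1*, *Apoc3*, *Apoa4* and *Apoa5* share the interval 46228630 to 46271921 (build mm10), and their log2 ratios ran from -2.64 for *Apoa4* to -0.26 for *Apoa1*. On chromosome 7, *Apoc2*, *Apoc4*, *Apoc1* and *Apoe* share 19671579 to 19701310, where the log2 ratios ran from -1.33 to -0.54. *Apoa2* lies on chromosome 1 at 171221564 to 171226379 and *Apob* on chromosome 12 at 7977629 to 8016839. The low ratio of *Apoa4* was thus not shared by its neighbours: *Apoc3* on one side and *Apoa5* on the other had -0.68 and -0.50. Some genes beside the clusters were looked up after the values had been seen. On chromosome 7, *Tomm40*, *Nectin2* and *Clptm1* had log2 ratios of -0.48, -0.49 and -0.54. These values lay between the 25th and 75th percentiles of the genes reaching 1000 counts in either library, which were -0.58 and 0.58. On chromosome 9, *Zpr1* was at 0.55 and *Sik3* at -0.12. The gene model *Gm44805*, which lies across *Apoc4* and *Apoc2* on the same strand, had 1548 and 717 counts, a log2 ratio of -0.85, so reads of the 3 could not be fully separated.

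The log2 ratio of a gene followed its base composition throughout the table. Over the 15115 genes with a GC content, Spearman's rho between the log2 ratio and GC content was -0.688, and that with transcript length 0.335. These are descriptions across genes of the same 2 libraries. When genes were put in 10 groups of equal size by GC content, the median log2 ratio went from 1.505 in group 1, the lowest in GC, to -0.69 in group 10. *Apob* lay in group 2, where the median was 1.12, and its own value was 1.82. The other 9 genes lay in groups 6 to 10, where the medians ran from -0.13 to -0.69. With both trends removed, 7 of the 10 genes were above 0, the median was 0.08, and values other than those of *Apoa4* (-1.92), *Apoc2* (-0.54) and *Apoa1* (0.49) lay between -0.02 and 0.24. The part of base composition in these ratios was not tested further, since no second pair of libraries was analysed here.

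**Figure D4:**
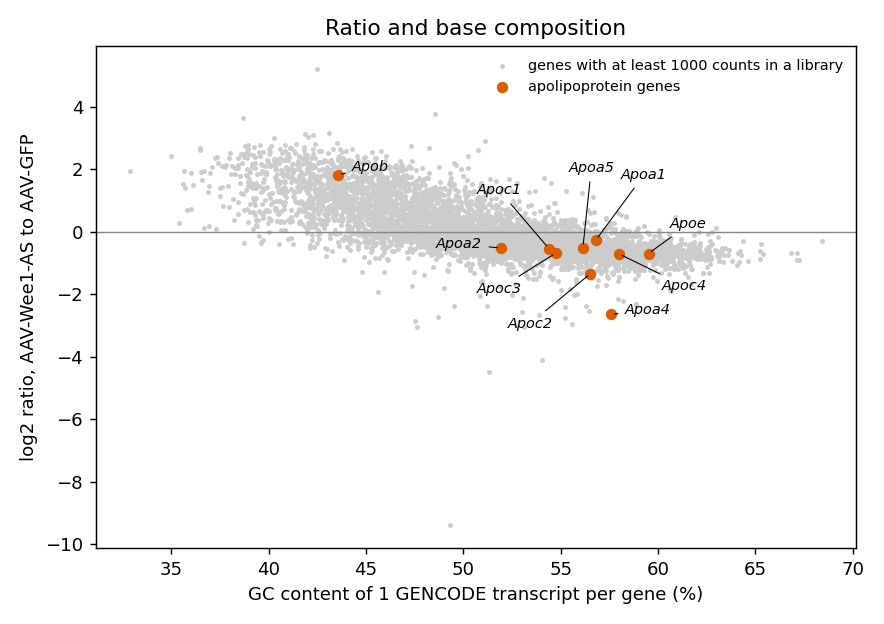
The log2 ratio (AAV-Wee1-AS over AAV-GFP) plotted against the GC content (%) of 1 GENCODE transcript per gene, for genes reaching 1000 counts in either library (grey) and the apolipoprotein genes (orange, named). Apob sits at 43.5% GC with a ratio of 1.82, the other 9 genes lie at 51.9% to 59.5%, and Apoa4 lies below the cloud at -2.64.

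Other genes of the lipoprotein pathway were counted by list, and each count is to be read against the 22.2% of all genes past 2-fold upward and the 8.71% downward. Of 19 other apolipoprotein and HDL-bound protein genes tested, 2 were more than 2-fold higher and 1 lower, with a median log2 ratio of 0.32 by counts, 0.26 with the trends removed and 0.05 in TPM. *Saa4*, the constitutive serum amyloid A of HDL, had 8215 counts in AAV-GFP and 17479 in AAV-*Wee1-AS* (1.35), while *Apol10b* with 9 and 38 counts and *Apol11b* with 12 and 4 rest on few reads. *Apoh* and *Apom*, minor plasma apolipoproteins, were at -0.20 and -0.25. After trend removal, *Saa4* was at 1.27, *Apoh* at -0.33 and *Apom* at 0.36.

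Genes that act on *Apob* itself were considered next. Of 4 genes of *Apob* mRNA editing, by which the liver of the mouse makes the shorter apolipoprotein B-48, 2 were past 2-fold upward and none downward, and the list median was 1.23, or 0.37 with the trends removed. *A1cf*, a cofactor of the editing enzyme, had 2663 and 7047 counts (1.67), and *Syncrip*, an RNA-binding protein, 590 and 1369 (1.47). *Apobec1*, the deaminase that edits the message, had 378 and 429 (0.44). Of 12 genes of lipoprotein assembly and secretion, 2 were past 2-fold upward, a share below that of all genes, and none downward, with a median of -0.46, or -0.05 with the trends removed. These were *Mia2* (6558 and 14887 counts, 1.45) and *Mia3* (2659 and 7327, 1.73), which load large cargo into vesicles at the endoplasmic reticulum. *Mttp*, which puts lipid on the growing *Apob* product, had 19295 and 21754 (0.44). With the trends removed, *Mia3* was at 1.04, *A1cf* at 0.81, *Mia2* at 0.47 and *Mttp* at -0.38. Of the editing genes, *Apobec1* was then at -0.06 and *Syncrip* at -0.66, while *Rbm47*, another cofactor, went from 0.98 to 1.24.

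None of 13 genes of lipoprotein receptors and uptake was past 2-fold, and their median was -0.40, or -0.11 with the trends removed. *Lrp1*, a receptor of remnants that carry the *Apoe* product, was at -0.16, and *Scarb1*, the receptor of HDL, was at -0.59. Among genes of plasma lipoprotein remodeling, *Abca1*, which loads lipid onto apolipoprotein A-I, was past 2-fold upward with 2880 and 5957 counts (1.31). *Lcat* was at -0.25, *Lipc* at -0.43 and *Pltp* at -0.67. After trend removal, *Abca1* was at 0.23, *Lcat* at 0.40, *Lipc* at -0.57, *Pltp* at 0.06, *Scarb1* at -0.02 and *Lrp1* at -0.39.

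Of 18 regulators of apolipoprotein genes, 4 were past 2-fold upward and 2 downward, with a median of -0.15, or 0.04 with the trends removed. These shares are close to the 22.2% and 8.71% of all genes, so the counts do not set the list apart. *Rora*, a nuclear receptor of the clock and of lipid genes, had 358 and 1851 counts (2.63), *Thrb* 491 and 1358 (1.73), *Nr5a2* 815 and 2184 (1.68), and the coactivator *Ppargc1a* 103 and 216 (1.31). *Nr1d1*, the clock repressor Rev-erb alpha, had 7777 and 2733 (-1.24), and *Nr0b2*, the bile acid-responsive repressor SHP, 2304 and 872 (-1.14). Other regulators tied to the 10 genes were within 2-fold, with *Hnf4a* at -0.06, *Nr1h3* (the oxysterol receptor LXR alpha) at -0.62 and *Ppara* at 0.81. With the trends removed, *Rora* was at 2.68, *Thrb* at 0.98, *Nr1d1* at -0.66, *Nr5a2* at 0.42, *Nr0b2* at -0.36, *Ppargc1a* at -0.29, *Hnf4a* at 0.11, *Nr1h3* at 0.08 and *Ppara* at 0.86.

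**Figure D5:**
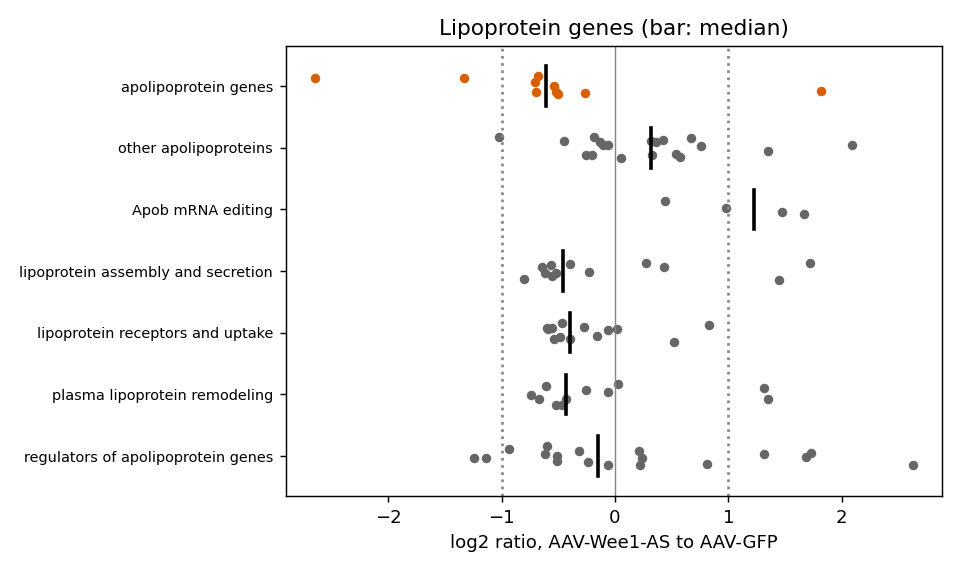
The log2 ratio (AAV-Wee1-AS over AAV-GFP) for the genes of each lipoprotein list, 1 point per gene, with the list median as a bar and dotted lines at 2-fold. The apolipoprotein genes (orange) have a median of -0.61, and the 4 genes of Apob mRNA editing one of 1.23.

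Markers of liver cells were read beside these values. Hepatocyte markers lay on both sides of 0: 3 of 6 tested were above 0 and 3 below, *Alb* being at 0.53 (0.19 with the trends removed), *Ttr* at -0.62 (-1.05) and *Cps1*, past 2-fold, at 1.21. Together the list held 6.79% of the counts in AAV-GFP and 8.32% in AAV-*Wee1-AS*. *Alb* alone held 4.58% and 6.38%, and the other 5 markers together 2.21% and 1.94%. Of 14 macrophage markers, 4 were more than 2-fold lower (*C1qb* -1.01, *C1qc* -1.03, *Trem2* -2.08 and *Gpnmb* -3.44) and 3 higher (*Vsig4* 1.52, *Timd4* 1.40 and *Marco* 1.60), and their summed share went from 0.0968% to 0.0644%. The share of markers that were higher is close to the 22.2% of all genes, and the share that were lower is above the 8.71%. *Cd5l*, the most abundant of them, had 13953 and 6876 counts (-0.76). Once the trends were removed, *Trem2* (-1.31) and *Gpnmb* (-3.68) were still more than 2-fold lower and *Marco* (2.15) higher, while *C1qb* was at -0.25, *C1qc* at -0.27, *Vsig4* at 0.81 and *Timd4* at 0.60, and *Cps1* of the hepatocyte list was at 0.31. Of 6 stellate cell markers, *Col1a1* (-2.32), *Col3a1* (-2.03) and *Pdgfrb* (-1.09) were more than 2-fold lower and *Lrat* (1.46) higher, and the summed share went from 0.0409% to 0.0255%. Trend removal put *Col1a1* at -2.05, *Col3a1* at -2.10, *Pdgfrb* at -0.93 and *Lrat* at -0.01. No endothelial or cholangiocyte marker was past 2-fold. The most abundant by counts, *Stab2* and *Spp1*, were at -0.27 and -0.21, and at -0.65 and -0.97 with the trends removed. The part of macrophages in the *Apoe* ratio, and of cell makeup in the others, was not tested.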

How the data were processed

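The 2 liver libraries analysed, 1 per group, were of poly-A RNA (stranded, paired-end). The submitters' processing notes name Trimmomatic 0.38, HISAT2 2.1.0, SAMtools 1.9, StringTie 2.1.3b and the build mm10. The authors deposited 1 table of 129299 RefSeq transcript models with the length of each model in bases and, per library, an estimated count, an FPKM value and a TPM value. The authors' estimated counts carry no normalization and are shared out between overlapping models, which can move reads from one model to another. The FPKM and TPM values deposited by the authors are divided by model length.

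Values were summed per gene symbol. Genes reaching 10 counts in either library were kept. Libraries were scaled by TMM in edgeR 4.0.16 (R 4.3.3; factors 1.02 for the control and 0.980 for AAV-*Wee1-AS*), with a prior count of 2 for log2 ratios. Ratios above 2 or below 0.5 were counted. The self-made code ran in Python 3.11.15 and was tested on simulated data. GC content came from 1 GENCODE vM21 transcript per gene, the one paired with the RefSeq model of highest count where listed (13773 of 15115 genes) and otherwise the longest. Trends with GC content and log2 length were removed by lowess with a span of 0.3 in 5 cycles (statsmodels 0.14.6). The alternatives were other scalings (library totals, DESeq2 1.42.0 size factors, upper quartile), other filters, another prior count, FPKM, TPM and the leading transcript model alone.

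The 10 members and the gene lists were chosen with earlier results of these data known. Named were all members, listed genes past 2-fold with at least 100 counts in a library, and fixed pathway genes. The most abundant gene of each marker list by counts was also named, as were transcript models with at least 5% of their gene's counts. *Apol10b*, *Apol11b*, *Rbm47* and the genes beside the clusters were named after their values were seen, as were *Dock8*, *Hspg2* and *Pbld2*. The marker *Tf* was not found under that symbol. Some listed genes are not reported here.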

Additional observations from a re-analysis of the deposited data

How the results depend on the processing

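No paired analysis was possible because each group has 1 library, and for the same reason no replicate could be left out. Under every alternative scaling, filter and prior count tried, 3 of the 10 apolipoprotein genes were past 2-fold and 9 were below 0. Removal of the GC content and length trends left 1 past 2-fold and moved the median of the 10 genes from -0.61 to 0.077. It also lowered the number of other lipoprotein genes past 2-fold in either direction from 15 to 7. Their lists, in the order given above, had 19, 4, 12, 13, 11 and 18 genes tested. The number past 2-fold was 17 with upper-quartile scaling, 12 in TPM and 10 in FPKM. It is to be read beside the numbers of all genes given below. In FPKM and TPM *Apoe* was above 0, and with only the model of highest mean count per gene its log2 ratio was -7.67. Without *Apoe*, an alternative added with the data in view, the 9 other genes had a median of -0.54. Upper-quartile scaling moved the median of all genes from -0.02 to -0.22. Of all 15857 genes, the numbers more than 2-fold higher and lower were 3527 and 1381 by counts (22.2% and 8.71%). They were 1029 and 307 in FPKM and 1608 and 438 in TPM (pseudocount 1 for both). With upper-quartile scaling they were 2938 and 2232. With only the leading models they were 3705 and 2076 of 15782 genes, and with the trends removed 1097 and 1177 of 15115. Over all settings but the leading model, *Apoa4* ranged from -2.85 to -1.92, *Apob* from 0.02 to 1.83 and *Apoc2* from -1.54 to -0.54. Depth did not limit these genes, the lowest of which was *Apoc2* with 15215 counts in AAV-*Wee1-AS*, but 1 library per group gives no error of the treatment.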
